A study of Oryza sativa Japonica Group with 3 samples.

Results

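The comparison of germinated with dry rice seed covered 20598 loci of the 55986 in the deposited tables. A locus was included when its summed FPKM was 1 or more at 48 h, at 0 h, or in both. FPKM is a fragment count divided by transcript length and by the library total. The lowest value that let a locus in was 1.00 FPKM in the higher of both libraries, and the highest that kept one out was 0.99 FPKM.

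Both groups were whole seeds of Jiucaiqing, a landrace of Oryza sativa in the Japonica Group. The germinated seeds had taken up distilled water for 48 h at 30 °C in Petri dishes, and the dry seeds (0 h) had not been wetted. A library of seeds imbibed for 24 h served here only as the level in between. Each time was 1 library of poly(A)-enriched RNA that combined 3 biological replicates, so the spread between replicates is not in the values. No test was therefore possible, and each difference below is one between libraries, not one shown for the stages. In whole seeds, a change in how many cells of a type contribute and a change in RNA per cell cannot be told apart.

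A mature cereal seed holds a living embryo beside a dead starchy endosperm, which a living aleurone surrounds. Messenger RNAs made during maturation are dried down with the seed, among them those of proteins that protect cells against water loss and of reserve proteins. On imbibition these stored messages are translated or degraded. New transcription then serves respiration, hormone synthesis, breakdown of starch by alpha-amylases, cell wall loosening and, in the growing axis, cell division.

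The files do not pair their locus IDs with gene names, and the reference table did so for 1 ID. Loci of known function could thus not be picked out by name, the seed tissue could not be checked by marker genes, and loci are described by level, time course and position in the ID order. The 1 matched locus, LOC_Os01g19850, is given there as KCC2 or OsCCC2. Its level was 0.16 FPKM at 48 h against 0.46 FPKM in the dry seed, too low to enter the comparison.

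The summed FPKM was 535327 at 48 h and 881252 at 0 h, with 580571 at 24 h. The larger step between these sums lies in the first day. Counts and shares by day given below therefore depend on the scaling, and they were not rescaled. The deposited tables give no read totals, so the absolute depth is unknown and no counting error can be attached to a value. Among 2701 isoforms between 0.5 and 2 FPKM in both libraries, the commonest ratio of 48 h over 0 h was 1.06, shared by 61 isoforms against a median of 32 at other ratios. The range itself favours ratios near 1, so the relative depth of the libraries is not settled by this value.

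Germinated and dry seed differed by 2-fold or more at nearly as many loci as they did not. Differences were taken on log2(FPKM + 1), which makes those of low loci look smaller than they are. On this scale 5758 loci were at least 2-fold higher at 48 h, 28.0% of those measured, and 4260 were at least 2-fold lower, 20.7%. The median log2 difference of all measured loci was 0.18. The loci that were higher had low levels in the dry seed, with medians of 7.28 FPKM at 48 h and 0.78 FPKM at 0 h. The loci that were lower had medians of 4.06 FPKM at 48 h and 20.9 FPKM at 0 h.

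The higher loci held the greatest part of the summed FPKM of the germinated seed, and the lower loci most of that of the dry seed. The loci that were lower held 11.1% of the summed FPKM at 48 h, against 67.2% at 0 h. The loci that were higher held 48.7% at 48 h, against 9.04% at 0 h. Of this, 20.4% at 48 h and 5.65% at 0 h came from a single locus on chromosome 9, the most abundant of both libraries. The other 10580 loci stayed within 2-fold and held 39.7% at 48 h against 23.5% at 0 h. Without the locus on chromosome 9, the higher loci would hold less at 48 h than these 10580. These sets were chosen by the difference itself, so their shares describe its size and test nothing.

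The higher loci were more numerous at small differences and the lower loci at large ones. At 4-fold or more, 2163 loci were higher and 1609 lower. At 8-fold or more, 826 were higher, 4.01% of those measured, and 739 were lower, 3.59%. At 16-fold the order turned, with 315 higher and 406 lower. At 64-fold or more, 43 loci were higher and 142 lower. With both libraries rescaled to the same sum the order turned later, with 194 higher and 174 lower at 32-fold and 70 higher and 109 lower at 64-fold. In the 48 h library, 10 of the 739 lower loci were listed at 0, and in the dry seed 80 of the 826 higher loci were. Such a 0 may stand for no assigned fragments or for an estimate that failed, which the deposited values do not tell apart.

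These counts turn on how the libraries are scaled. With equal sums in both libraries, 8949 loci were higher and 2517 lower. The higher ones then made up 78.0% of both, against 57.5% for the values as deposited. The median of all loci was then 0.78. With a pseudocount of 5 FPKM in place of 1 FPKM, 2509 were higher and 2637 lower.

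**Figure D1:**
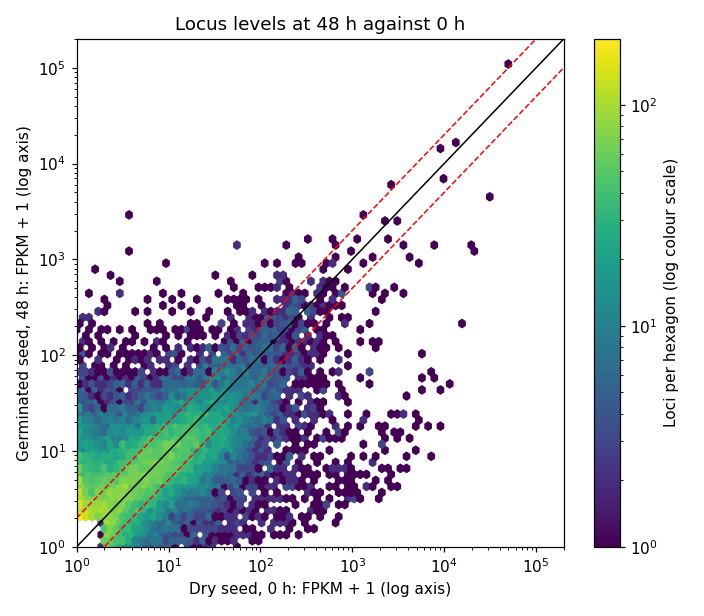
Level of each of the 20598 measured loci in the germinated seed (vertical axis, FPKM + 1, log scale) against the dry seed (horizontal axis, FPKM + 1, log scale), with colour for the number of loci per hexagon. The solid line marks equal levels and the dashed lines 2-fold differences. A group of loci at 1000 FPKM or more in the dry seed lies far below the lower dashed line, and loci near 0 in the dry seed reach 100 FPKM or more at 48 h.

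The abundant transcripts of the dry seed were mostly lower by 48 h, and the share of loci that were lower grew with the stored level. Of the 105 loci at 1000 FPKM or more in the dry seed, 93 were at least 2-fold lower at 48 h, or 88.6%, where 20.7% of all measured loci were. Of these 105, 76 were at least 8-fold lower, or 72.4%, where 3.59% of all measured loci were. Over 0, 24 and 48 h their median level was 2210, 270.2 and 22.5 FPKM. The classes were chosen by the 0 h value, which enters the difference, so these counts are a description. The pseudocount of 1 FPKM also bars loci under 1 FPKM at 0 h from being called lower. It holds loci of a few FPKM short of 8-fold. Part of the contrast with all measured loci, and of the rise with stored level, is therefore fixed by the scale.

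Loci at 100 to under 1000 FPKM in the dry seed numbered 896. At 48 h 580 of them were at least 2-fold lower, or 64.7%, and 303 at least 8-fold lower, or 33.8%. Their median over the 3 times was 182, 83.7 and 51.3 FPKM. The median of the class of 1000 FPKM or more therefore lay below that of this less abundant class at 48 h. Among 5534 loci at 10 to under 100 FPKM in the dry seed, 2229 were at least 2-fold lower, or 40.3%, and 446 at least 2-fold higher. Among 9799 loci at 1 to under 10 FPKM, 1358 were lower, or 13.9%, and 2133 higher, or 21.8%. Rescaled to the same sum, the share at least 2-fold lower kept this order, with 84.8% of the 105 loci, 51.9% of the 896, 23.3% of the 5534 and 6.86% of the 9799. The loci that were higher gained in number under that scaling. Among the 5534, 1089 were then higher and 1291 lower, and among the 9799, 3734 were higher and 672 lower.

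**Figure D2:**
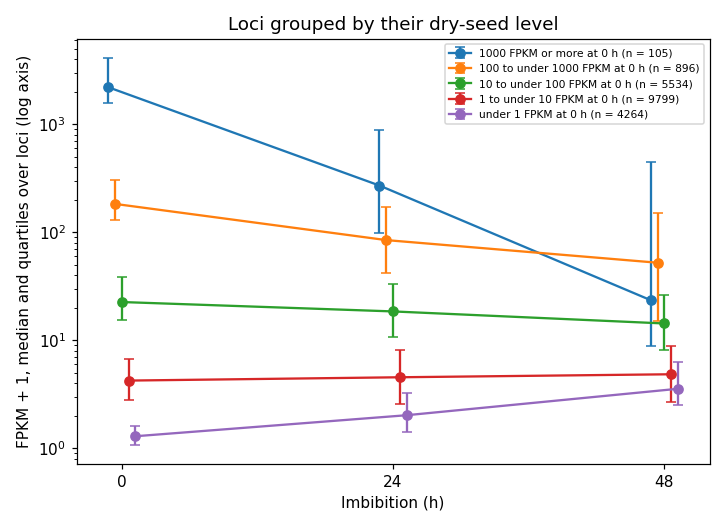
Median FPKM + 1 (log scale) by hours of imbibition for loci grouped by their dry-seed level, with bars from the lower to the upper quartile over loci and points shifted sideways for clarity. The line for 1000 FPKM or more at 0 h has medians of 2210, 270.2 and 22.5 FPKM over the 3 times and crosses that of the next class. The class under 1 FPKM at 0 h could only gain, since its loci were included by their 48 h level.

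A set picked for high values in 1 library lies lower in another by selection alone, so the same classes were formed on the 48 h library. Of the 27 loci at 1000 FPKM or more at 48 h, 4 had been at least 8-fold lower in the dry seed, or 14.8%. Of the 562 loci at 100 to under 1000 FPKM at 48 h, this held for 101, or 18.0%. The matching values for loci chosen in the dry seed are the 72.4% and 33.8% given above. With 27 loci against 105 in the top class, these sets differ in size and in level. The same FPKM limits were also applied to libraries of unlike sum, so the contrast depends on the scaling. Rescaled to the same sum, the values for loci chosen in the dry seed were 69.5% and 26.3%. The classes of the 48 h library were not rescaled.

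The most abundant stored transcripts differed widely in how much was left. Of the 105 loci, 58 kept under 1% of their dry-seed FPKM at 48 h and 17 kept 1% to 10%. A further 18 kept 10% to 50%, 9 stayed between 50% and 200%, and 3 exceeded 200%. The median kept was 0.788%, and the upper quartile was 14.0%. Loci at 100 to under 1000 FPKM were spread more evenly, with 78 under 1%, 201 at 1% to 10%, 303 at 10% to 50%, 278 at 50% to 200% and 36 above 200%. None of the 105 dropped under 1 FPKM at 48 h, while 22 of the 896 did.

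**Figure D3:**
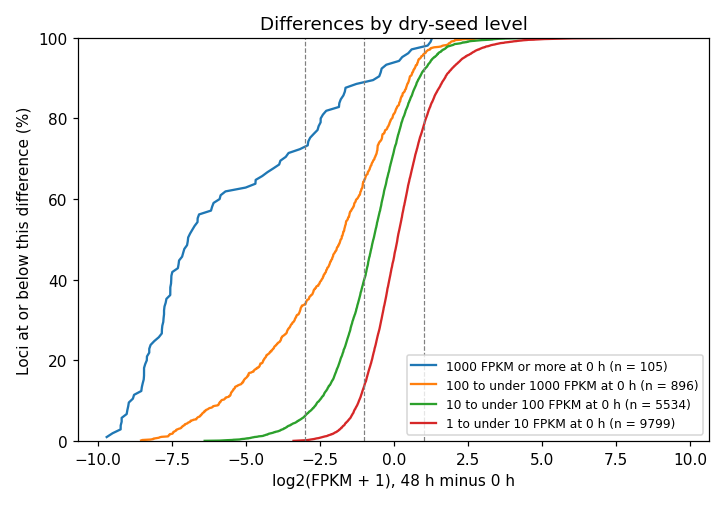
Cumulative share of loci (vertical axis, %) by their log2(FPKM + 1) difference, 48 h minus 0 h (horizontal axis), for 4 classes of dry-seed level. Dashed lines mark log2 differences of -3, -1 and 1. The curve for 1000 FPKM or more has passed 72.4% at -3, against 33.8% for 100 to under 1000 FPKM.

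The 10 highest dry-seed loci show these fates side by side. At 48 h, 5 of them were at least 8-fold lower, 1 more was at least 2-fold lower, 3 stayed within 2-fold and 1 was at least 2-fold higher. The seventh in rank, on chromosome 10, had 49.9 FPKM at 48 h against 11532 FPKM in the dry seed. The ninth, on chromosome 5, had 18.1 FPKM at 48 h against 9781 FPKM in the dry seed. The tenth, also on chromosome 5, had 14503 FPKM at 48 h against 9621 FPKM in the dry seed. The 10 loci together held 29.0% of the summed FPKM at 48 h and 21.7% at 0 h, with 20.4% at 48 h and 5.65% at 0 h from the leading locus on chromosome 9. Of these 10 loci, 5 were also among the 10 most abundant at 48 h.

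A minority of the abundant stored transcripts was still at the same limit or above it at 48 h. Of the 1001 loci at 100 FPKM or more in the dry seed, 345 were also at 100 FPKM or more at 48 h. Within these 345, 238 differed by less than 2-fold, 39 were higher and 68 lower, and the median log2 difference was 0.03. Choosing loci that are high in both libraries favours small differences, so these values are a description. The split of higher and lower loci depends on the scaling and turned when both libraries were set to the same sum. Then 131 of the 345 were higher and 35 lower, with a median of 0.75. It did not turn under median-of-ratios factors or a trimmed mean of log ratios. Each of these gave 44 higher, 62 lower and a median of 0.10. In the values as deposited, of the 238, 190 were also within 2-fold of both other times at 24 h. The 238 loci held 20.5% of the summed FPKM at 48 h and 11.7% at 0 h. Their share thus differed although their FPKM did not by as much as 2-fold, since the sums of the libraries differ.

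The lower levels of stored transcripts were reached over both days. Over all loci, 15.6% were at least 2-fold lower at 24 h than at 0 h and 10.7% at least 2-fold lower at 48 h than at 24 h. Of the 673 loci at 100 FPKM or more in the dry seed that were at least 2-fold lower at 48 h, 511 had passed 2-fold in the first day and 468 passed it in the second, with 345 doing so in both. For 155 loci the second day stayed within 2-fold, and for 122 the first day did. In 11 loci a drop past 2-fold in the first day was followed by a gain past 2-fold. The median share of the log2 difference reached by 24 h was 57.5%, with quartiles of 40.2% and 71.7%. Among the 93 such loci at 1000 FPKM or more, 75 passed 2-fold in both days and the median share was 55.3%, with quartiles of 45.1% and 60.1%. These counts and shares by day hold for the values as deposited and depend on the scaling. The loci were chosen by their loss over both days, so the shares of all loci given above are no measure for them.

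Stored transcripts that went from clear presence to near absence were fewer than the new ones. At 10 FPKM or more in the dry seed and under 1 FPKM at 48 h there were 170 loci, with medians of 0.48 FPKM at 48 h and 23.3 FPKM in the dry seed. They held 0.0154% of the summed FPKM at 48 h and 1.00% at 0 h. At 24 h, 37 of them were already under 1 FPKM, 121 were at 1 to 10 FPKM and 12 were still at 10 FPKM or more. Their highest dry-seed level was 643 FPKM, so no locus at 1000 FPKM or more is among them.

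The new transcripts of the germinated seed were many, and most were of modest level. Loci that were at 1 FPKM or more in the germinated seed and under it in the dry seed numbered 4264, against 1743 with the opposite pattern. Of the 4264, 510 reached 10 FPKM or more at 48 h, and 26 reached 100 FPKM or more. The boundary lay between loci at 10.00 and 9.99 FPKM at 48 h. Over 0, 24 and 48 h the median of the 510 loci was 0.30, 4.73 and 18.1 FPKM. They held 3.07% of the summed FPKM at 48 h and 0.0203% at 0 h. Of the 510, 51 were listed at 0 before imbibition. Rescaled to the same sum, 796 loci met these limits.

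By 24 h most of the new loci were present at 1 FPKM or more, but most had not reached 10 FPKM. At that time 97 of the 510 were under 1 FPKM, 251 were at 1 to 10 FPKM and 162 were at 10 FPKM or more. Of the 26 loci that reached 100 FPKM or more, 20 were at 10 FPKM or more at 24 h and 2 under 1 FPKM. A mark of 10 FPKM is a smaller part of a higher final level, so no lead in time follows. The medians at 24 and 48 h were 48.7 and 171 FPKM for these 26, and 4.51 and 17.5 FPKM for the other 484. In 59 of the 510 the level at 24 h exceeded that at 48 h. Over all loci, 17.4% were at least 2-fold higher at 24 h than at 0 h and 14.0% at least 2-fold higher at 48 h than at 24 h. Of the 510, 389 passed 2-fold in the first day, 347 in the second and 226 in both. The limits that chose the 510 forced each to pass 2-fold on at least 1 day. The shares of all loci are therefore no measure for them. Such counts by day depend on the scaling too.

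**Figure D4:**
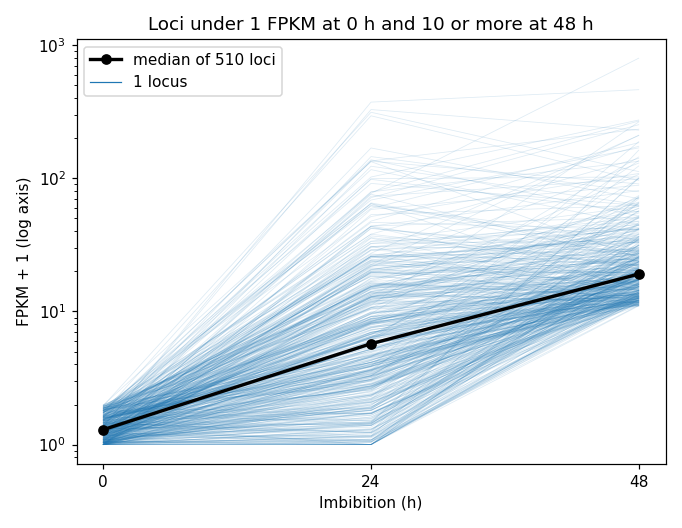
FPKM + 1 (log scale) at 0, 24 and 48 h of imbibition for the 510 loci under 1 FPKM at 0 h and at 10 FPKM or more at 48 h, 1 thin line per locus, with the median as a thick line. The median is 0.30, 4.73 and 18.1 FPKM, and the lines fan out widely at 24 h.

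Among the loci that were higher, those abundant at 48 h had covered a larger share of their log2 difference by 24 h. Of the 243 loci at 100 FPKM or more at 48 h that were at least 2-fold higher than at 0 h, 175 had passed 2-fold by 24 h and 95 passed it in the second day. The median share of the log2 difference reached by 24 h was 75.3%. Over all 5758 higher loci, 2804 had passed 2-fold by 24 h, 2294 passed it in the second day, and the median share was 54.8%. The same part of the final FPKM makes a larger share of log2 where the total difference is larger. The pseudocount also shrinks the steps of low loci. The contrast between abundant and all higher loci can thus include an effect of the scale, whose size was not tested. Over all 4260 lower loci, 2574 had passed 2-fold by 24 h, 1436 passed it in the second day, and the median share was 64.8%. Because the sums of the libraries differ most over the first day, these values depend on the scaling. They were not rescaled, so the order of 54.8% and 64.8% may not hold under another scaling. The 24 h level was not used to choose these loci, but it is not independent of that choice. The share is still less so, since the 0 h and 48 h values are in it.

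The most extreme losses were those of LOC_Os01g06630 on chromosome 1 and LOC_Os11g26570 on chromosome 11. Over 0, 24 and 48 h LOC_Os01g06630 stood at 6988, 536 and 7.40 FPKM, and its log2 difference of 48 h minus 0 h was -9.70. It kept 0.106% of its dry-seed level, and 38.2% of the log2 difference was reached by 24 h. In FPKM the greater loss came on the first day, and as a ratio on the second. LOC_Os11g26570 stood at 2947, 52.4 and 3.07 FPKM, and its difference was -9.50. It kept 0.104%, and 60.9% of the difference was reached by 24 h. Both loci are listed with 1 isoform.

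The 10 largest losses, taken among loci that reached 10 FPKM in the higher library, had similar courses. They were at 2.23 to 18.1 FPKM at 48 h, against 1936 to 9781 FPKM at 0 h, with log2 differences between -9.70 and -8.95. At 24 h they were at 44.1 to 749 FPKM, and between 38.2% and 66.2% of the difference had been reached. They lay on 6 chromosomes, 3 of them on chromosome 11. Of these 10 loci, 1 has more than 1 listed isoform.

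The most extreme gains were those of LOC_Os10g40440 and LOC_Os10g21670, both on chromosome 10. Over the 3 times LOC_Os10g40440 stood at 2.51, 1498 and 2857 FPKM, and 90.4% of its log2 difference of 9.67 was reached by 24 h. It ranked eighth among all loci at 48 h. LOC_Os10g21670 stood at 0.61, 76.0 and 798 FPKM, and 62.3% of its difference of 8.96 was reached by 24 h. With a pseudocount of 5 FPKM that difference was 7.16.

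The 10 largest gains differed more in their course than the 10 largest losses. They were at 187 to 2857 FPKM at 48 h, against 0 to 2.70 FPKM at 0 h, and at 2.88 to 1498 FPKM at 24 h. Between 25.9% and 96.3% of the log2 difference had been reached by 24 h, against 38.2% to 66.2% for the losses. The ninth in rank, on chromosome 7, was listed at 0 in the dry seed, so no fold is given for it. It had 2.88 FPKM at 24 h and 187 FPKM at 48 h. The 10 loci lay on 6 chromosomes, 4 of them on chromosome 10.

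Locus IDs of this kind carry the chromosome and run in order along it, which allowed the position of the loci to be compared. The share of measured loci at least 2-fold higher at 48 h was 25.03% on chromosome 5 and 31.2% on chromosome 11, the lowest and the highest of the 12 chromosomes. The share at least 2-fold lower was 16.1% on chromosome 11, the lowest, and 22.1% on chromosome 5, the highest. Chromosome 10 had the highest share of loci at least 8-fold higher, with 55 of 1076 or 5.11%, against 4.01% of all measured loci. These 55 include the runs of 8 and 4 neighbouring loci described below, so the share is not one shown for the whole chromosome. Chromosome 3 had the highest share at least 8-fold lower, with 123 of 2751 or 4.47%, against 3.59% of all measured loci. Of 185 gene models with no chromosome in the ID, 25 were measured, of which 7 were higher and 4 lower.

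Neighbours in ID order differed in the same direction at a higher share of pairs than loci further apart, a description without a test. Where adjacent measured loci both passed 8-fold, 134 of 178 pairs, or 75.3%, went in the same direction. This was 55.4% of 177 pairs at 2 places apart and 49.2% of 130 pairs at 50 places apart. At 2-fold the values were 59.7% of 4996 adjacent pairs and 51.6% of 4768 pairs at 50 places apart. Adjacent loci can be near-identical copies, among which shared reads may be divided in ways the deposited values do not show. Of 8826 loci at 10 FPKM or more at 48 h or 0 h, 14 had the same FPKM as another locus in all 3 libraries.

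Runs of at least 4 successive measured loci past 8-fold in 1 direction numbered 6 and held 30 loci. The longest, of 8 loci on chromosome 10, includes LOC_Os10g40440. Its loci were at 14.8 to 2857 FPKM at 48 h, against 0 to 2.51 FPKM at 0 h, and their summed FPKM over 0, 24 and 48 h was 3.23, 1986 and 3920. Of these 8 loci, 7 had passed 2-fold by 24 h. A second run on chromosome 10, of 4 loci, summed to 7.87, 474 and 433 FPKM. Of its loci, 3 had more FPKM at 48 h than at 24 h, but only 1 by 2-fold or more. The most abundant had 223 FPKM at 48 h against 302 FPKM at 24 h. A run of 4 loci on chromosome 8 summed to 2.36, 348 and 907 FPKM, and each of its loci passed 2-fold on both days.

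A run on chromosome 6 differed in time from the other runs with gains. Its 4 loci summed to 9.31, 17.1 and 968 FPKM over the 3 times. None of them passed 2-fold in the first day and all 4 did in the second. The run spans 19 IDs, of which 15 were under 1 FPKM at 48 h and 0 h, so its loci are less close together than those of the other runs.

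The remaining runs were losses. On chromosome 1, 6 loci with successive IDs were at 0.40 to 70.4 FPKM at 48 h, against 19.0 to 7065 FPKM at 0 h. Over the 3 times they summed to 14131, 1015 and 127 FPKM. On chromosome 11, 4 loci were at 0.83 to 12.6 FPKM at 48 h, against 281 to 4192 FPKM at 0 h, and summed to 10671, 266 and 23.6 FPKM. All 10 loci of these runs had passed 2-fold by 24 h. All 4 on chromosome 11 and 4 of the 6 on chromosome 1 passed it again in the second day.

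**Figure D5:**
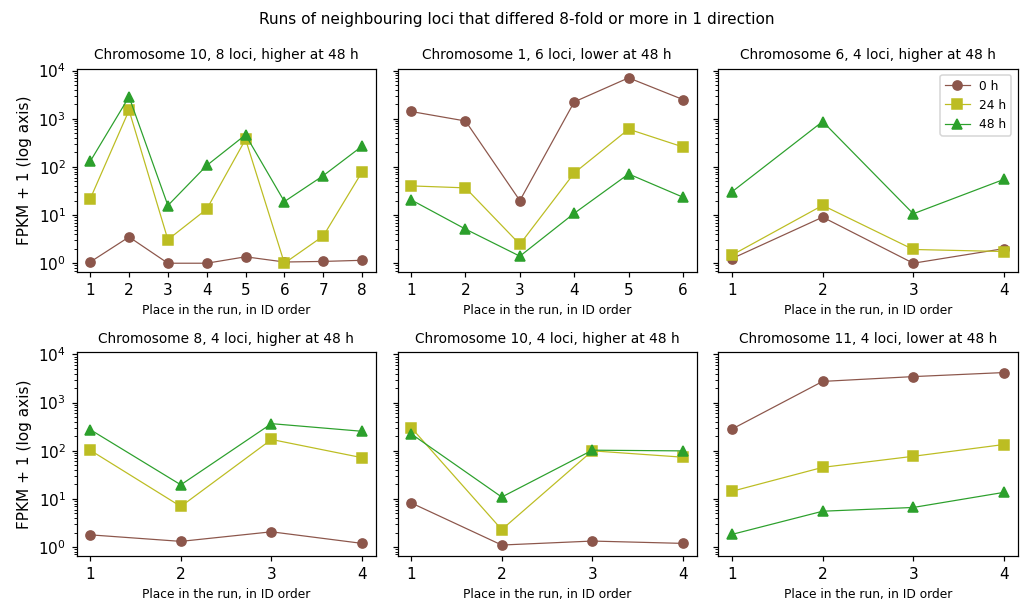
FPKM + 1 (log scale) at 0, 24 and 48 h for the loci of each of the 6 runs, in ID order along the horizontal axis. Levels at 24 h lie close to those at 48 h for 3 of the 4 loci in the shorter chromosome 10 run, close to those at 0 h in the chromosome 6 run, and between both in the runs with losses.

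Single isoforms did not always follow their locus. Of 3428 loci with at least 2 measured isoforms, 535, or 15.6%, had an isoform at least 2-fold higher at 48 h and another at least 2-fold lower. In 364 of the 535 the locus as a whole stayed within 2-fold. Loci listed with more than 1 isoform made up 28.3% of all measured loci. They made up 24.7% of the loci higher at 48 h, 27.6% of those lower, 22.7% of the 510 new loci and 16.5% of the 170 loci that were nearly lost. How reads were divided among isoforms cannot be read from the deposited values.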

How the data were processed

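Per the labels, RNA from seed powder was column-purified, poly(A)-enriched, fragmented and converted to size-selected, PCR-amplified libraries, and per the series design text 3 biological replicates were combined in each. The authors deposited 1 table per library with 1 FPKM value per isoform, to 2 decimals. The submitters' processing notes name FastQC, RSEM 1.1.11 and edgeR 2.3.52, with no role for any. Aligner, genome build, annotation and scaling between libraries: not given in the sources used here.

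FPKM of all isoforms sharing an ID up to the suffix were added. Loci reaching 1 FPKM at 48 h or 0 h were kept, differences taken on log2(FPKM + 1), and a locus was called higher or lower at 2-fold or more, a rule of size with no p-value. The counting by this rule was tested on simulated data, made by putting known folds on the dry-seed values, which measures no error of the real libraries. FPKM divides by the library total, so very abundant transcripts lower all others.

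The members, gene lists and limits were chosen with earlier results of these data known. The reference table (39387 genes of assembly ASM3414082v1, 8 columns searched) matched 1 locus ID, so the planned lists of loci of known function are not reported. The rule for named loci took the 10 largest differences each way, among loci reaching 10 FPKM in the higher library, and the 10 most abundant loci at 48 h and at 0 h. Without names, 2 IDs per direction are printed and the rest are summarised. Runs, neighbours and the bands of level kept were chosen after the values were seen. Alternatives were other pseudocounts, filters, folds and scalings, and values per isoform. Python 3.11.15, numpy 2.4.6, pandas 2.3.3 and matplotlib 3.10.9 were used.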

Additional observations from a re-analysis of the deposited data

How the results depend on the processing

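No paired analysis was possible because there is 1 library per time, and for the same reason no replicate could be left out. The planned lists of loci of known function could not be matched and were not run. Of 47 alternative values of the 6 counts and medians, 28 stayed within 1.5 times (0.1 for the median), among them each value under a trimmed mean of log ratios and under median-of-ratios factors. In what follows, counts are of loci higher, then lower, at 48 h. A pseudocount of 5 FPKM gave 2509 and 2637. A filter of 5 FPKM gave 3546 higher and a median of -0.020, and no filter a median of 0, because loci near 0 enter. At 4-fold there were 2163 and 1609, and 8 stored loci higher. The same sum per library, which multiplied 48 h values by 1.32 and 0 h values by 0.804, gave 8949 and 2517, a median of 0.78, 96 stored loci higher and 796 new loci. The same sum without the most abundant locus, chosen after seeing the data, gave 10330 and 2088, a median of 0.96, 416 stored loci lower of the 758 then at 100 FPKM or more, 121 stored loci higher, and 936 new loci. The 4 loci named for their differences were past 2-fold in the same direction in 6 alternatives each. They were picked as extremes, so this says nothing of other loci. Without read totals, the counting error of low values cannot be given.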
